A study of Solanum tuberosum with 6 samples.

Results

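The genes described here are 8 potato genes of the cell wall and of surface lipids, out of 32768 genes with counts in leaf RNA. They are a probable polygalacturonase, laccase-12, a laccase-7-like gene, an extensin-1-like gene, CASP-like protein 1, a trichome birefringence-like gene, and 2 non-specific lipid-transfer proteins (4.1-like and the At2g13820-like protein). They were picked by name from results of the same comparison of bulks: the trichome birefringence-like gene entered through the study's list of leaf proteins and the other 7 through their transcripts. Their values between the bulks are therefore given as a description without a test, and tests are kept for other genes.

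The plants were diploid interspecific potato hybrids of population 15-1, grown untreated in a greenhouse and sampled as leaf at full anthesis. Both bulks had low contents of glycoalkaloids (TGA), and they were contrasted for phytotoxic potential (PP), which was high in bulk C and low in bulk D. Each bulk pooled leaf of several F1 individuals, so that a library measures a pool of genotypes and no single plant can be read from it. The values are raw counts of reads per gene in 3 libraries of bulk C (C1, C2, C3) and 2 of bulk D (D1, D2), and D3 is not analysed here. The study's methods describe the libraries of a bulk as biological replicates, while neither they nor the labels say whether these differed in plants, leaves or extractions, so p-values measure the spread between these libraries of pooled leaf.

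The plant cell wall is a network of cellulose and hemicellulose in a gel of pectin, to which structural glycoproteins and, in some cells, lignin are added. Outer cell walls of the leaf are further covered by cutin and wax, and in suberized cells by suberin, all made from lipids that must be carried across the wall. Polygalacturonases cut the pectin backbone, laccases are copper oxidases that couple lignin precursors, and extensins are structural glycoproteins of the wall. CASP-like proteins are membrane proteins related to those that guide Casparian strip formation, trichome birefringence-like proteins acetylate wall polysaccharides in Arabidopsis, and non-specific lipid-transfer proteins bind lipids outside the cell.

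The libraries held between 22070364 and 22769554 counts. Of 19630 genes tested between the bulks, 6760 or 34.4% passed an adjusted p of 0.05 (edgeR quasi-likelihood test, Benjamini-Hochberg adjustment), of which 3649 (18.6%) were higher in D and 3111 (15.8%) lower. The leaf label could be checked on few genes. RBCS-C, a small subunit of Rubisco, was read at 7190 to 8570 CPM (counts scaled to a common library size, with TMM factors) in C and at 6860 to 8050 CPM in D. The summed level of 7 chlorophyll a-b binding protein genes was 2320 to 2720 CPM in C and 1210 to 1390 CPM in D. These 7 are the genes so named at the end of the study's ranked list that was higher in C, so the difference is fixed by how they were taken. Markers of other organs and of secondary walls were not checked, because the tables used here pair no gene with those names. In bulk leaf, fewer cells of a type and less RNA per cell cannot be told apart, for every difference below. Whether reads of these hybrids aligned equally well to the reference in both bulks was not tested.

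Of the 8 genes, 7 were close to unread in C and well read in D. The probable polygalacturonase, LOC102581240 (positions 2526870 to 2529682 on a scaffold of the SolTub_3.0 assembly), was read 2, 3 and 3 times in C1, C2 and C3 but 369 and 408 times in D1 and D2. Its level was 0.121 ± 0.0228 CPM (SD, n = 3) for C and 16.7 ± 2.36 CPM (SD, n = 2) for D, which is a 137-fold difference (95% counting interval 69.2 to 319). No library of C came near a library of D. The interval, like those that follow, is the exact binomial one on the pooled reads of each bulk and covers counting error only.

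The extensin-1-like gene, LOC102606273 (positions 278528 to 280446), was the only one of these 7 with more than 3 reads in every library of C. It was read 14, 11 and 12 times in the C libraries and 1698 and 1898 times in the D libraries. The levels were 0.562 ± 0.091 CPM (SD, n = 3) for C and 77.2 ± 11.5 CPM (SD, n = 2) for D, again a 137-fold difference (95% interval 99.3 to 195). The interval was narrow for its fold, and both libraries of D stood far above the libraries of C.

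Both laccases were nearly absent from the reads of C. Laccase-12, LOC102579330 (positions 543045 to 545580), had 1 read in each library of C and 99 and 93 reads in D. The means of C and D were 0.0454 ± 0.00172 CPM (SD, n = 3) and 4.1 ± 0.109 CPM (SD, n = 2), a 90.3-fold difference with a wide interval of 30.5 to 442. The laccase-7-like gene, LOC102582004 (positions 493347 to 497865), had 0 reads in every library of C and 50 and 56 reads in D, or 2.28 ± 0.342 CPM (SD, n = 2). A count of 0 allows up to 3 reads over bulk C, so the level in D was at least 49.9-fold higher.

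CASP-like protein 1, LOC102602009 (positions 942916 to 946595), was read 3, 3 and 1 times in the C libraries and 110 and 152 times in the D libraries. Its level was 0.106 ± 0.0528 CPM (SD, n = 3) for C and 5.65 ± 1.67 CPM (SD, n = 2) for D, a 52.8-fold difference (95% interval 25.3 to 133). The bulks were again apart, although the ratio of D2 to D1 was larger for this gene than for the other 7.

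Both lipid-transfer genes were barely read in C. The 4.1-like gene, LOC102588833 (positions 245230 to 246621), was read 0, 3 and 2 times in the C libraries and 152 and 192 times in the D libraries. Its levels were 0.074 ± 0.0672 CPM (SD, n = 3) and 7.41 ± 1.73 CPM (SD, n = 2), a 97.1-fold difference (95% interval 41.2 to 301). On the log2 scale this difference was 6.60, and it was 6.06 without C1 and 7.31 without C2. The At2g13820-like gene, LOC102594346 (positions 930508 to 931810), was read 2, 2 and 1 times in the C libraries and 149 and 141 times in the D libraries. Its levels were 0.0757 ± 0.0266 CPM (SD, n = 3) and 6.20 ± 0.197 CPM (SD, n = 2), an 81.9-fold difference (95% interval 34.7 to 254). No library of C had more than 3 reads of either gene.

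The trichome birefringence-like gene, LOC102599991 (positions 458428 to 463172), stood apart from the other 7. The study lists the protein group of this gene as found only in D. Its transcript was well read in both bulks, with 7172, 6843 and 6721 reads in C and 8559 and 8046 reads in D. In CPM this was 338, 299 and 305 in C and 348 and 362 in D, so that the lowest library of D was only slightly above the highest of C. The means were 314 ± 21.2 CPM (SD, n = 3) and 355 ± 9.64 CPM (SD, n = 2), a 1.13-fold difference, or 0.18 on the log2 scale. On total counts alone the log2 difference was 0.28, and with 1 library left out in turn it lay between 0.14 and 0.24.

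**Figure D1:**
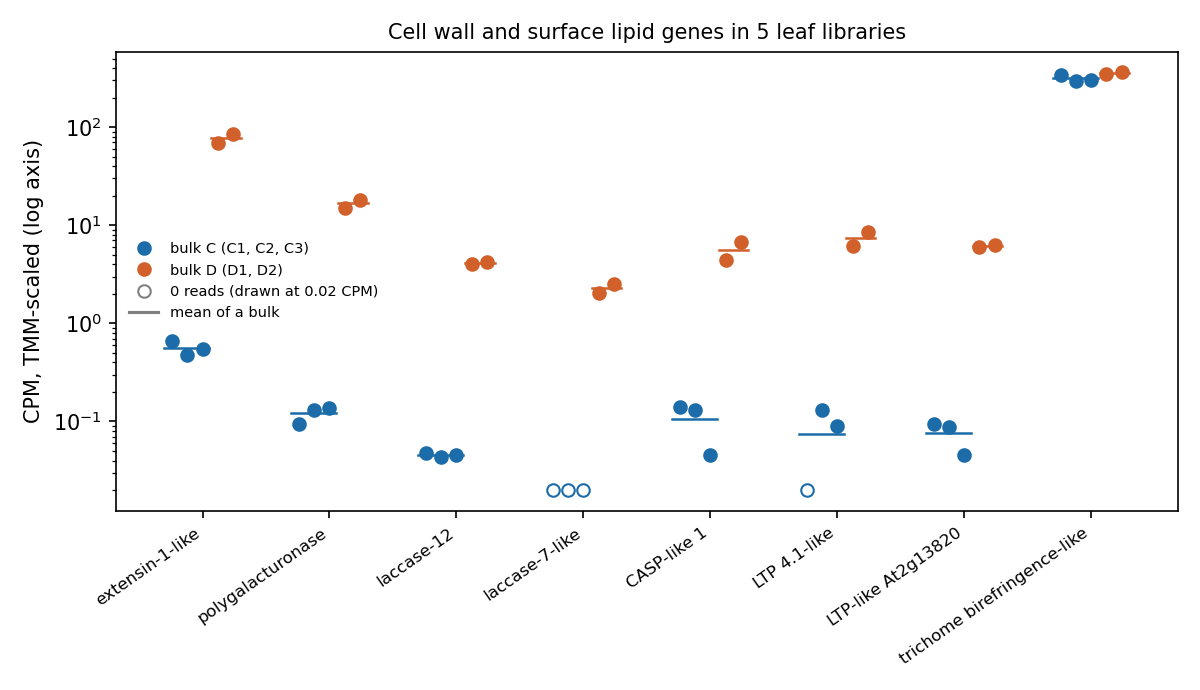
The level of each of the 8 genes in CPM (log axis) in the 3 libraries of bulk C and the 2 of bulk D, with bars at the mean of a bulk and open circles for 0 reads. For 7 genes the C libraries lie at or below 0.661 CPM and the D libraries at or above 2.03 CPM, whereas the trichome birefringence-like gene lies between 299 and 362 CPM in all 5.

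The median difference of the 8 genes was 6.43 on the log2 scale, with laccase-7-like at its bound, against a median of 0.01 over all tested genes. All 8 had both libraries of D above every library of C, as did 30.3% of tested genes. Since this contrast chose 7 of them, nothing is read from that count or from their median. The bulk assigned to C3 rests on how the header of the count table is read. Without C3 the log2 difference was 5.05 to 7.19 for the 7 genes and 0.16 for the trichome birefringence-like gene, and C3 itself had at most 12 reads of any of the 7.

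Genes with such a step were few. Only 38 of the 32768 genes had at most 3 reads in every library of C and at least 50 in every library of D, and 6 of these 38 are genes described here, the extensin-1-like and trichome birefringence-like genes being the exceptions. The mirrored pattern, at most 3 reads in every library of D and at least 50 in every library of C, was met by 2 genes. The limits of 3 and 50 reads were chosen after the counts had been seen. The 6 genes were themselves chosen by this contrast, so nothing is read from their number among the 38.

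The 2 libraries of D, which share a bulk, were also compared with each other. CASP-like protein 1 was read 1.53 times as high in D2 as in D1 (95% counting interval 1.19 to 1.97), the 4.1-like lipid-transfer gene 1.40 times (1.12 to 1.74), the extensin-1-like gene 1.24 times (1.16 to 1.32) and the polygalacturonase 1.22 times (1.06 to 1.41). The intervals of these 4 genes lay above 1.02, the median ratio of 15636 genes with a mean of at least 50 reads in D (middle 50% from 0.914 to 1.12). Laccase-12 (1.04), the laccase-7-like gene (1.24, interval 0.83 to 1.85), the At2g13820-like gene (1.05) and the trichome birefringence-like gene (1.04) had intervals that held this median. On total counts the ratios of the first 4 were 1.42, 1.30, 1.15 and 1.14 against a median of 0.95, and the lower limit for the polygalacturonase, 0.988, was then still above that median. The share of the 15636 genes whose intervals also left out the median was not counted, so the 4 genes cannot be called unusual. With a single pair of libraries the ratio compares D1 with D2 and says nothing on plants.

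**Figure D2:**
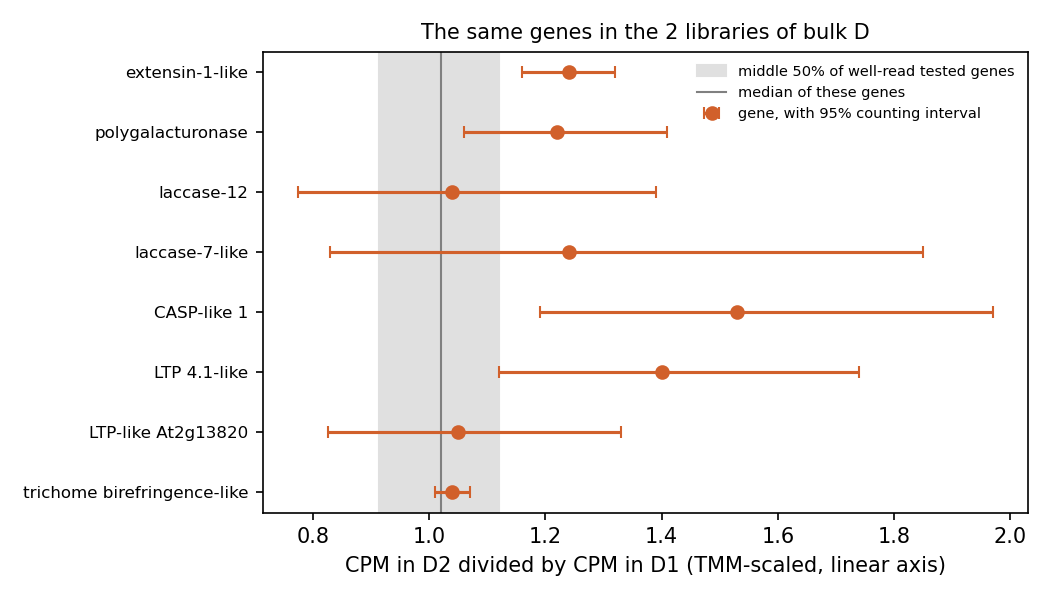
The CPM of each gene in D2 divided by its CPM in D1, with 95% counting intervals; the grey band is the middle 50% of 15636 well-read genes (0.914 to 1.12) and the line their median (1.02). CASP-like protein 1 lies furthest to the right at 1.53, while laccase-12, the At2g13820-like gene and the trichome birefringence-like gene lie near the median.

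The laccases could be followed beyond the 2 genes above, since 8 potato genes carry the gene ontology term for laccase (hydroquinone:oxygen oxidoreductase) activity. The study chose this term on these libraries, so that its direction is not independent evidence. All 8 had both libraries of D above all libraries of C, as did 30.3% of tested genes. That share is not a like comparison, since not all of the 8 were tested and 2 were already chosen by this contrast. Of the 6 other genes 3 had enough reads to be tested and all 3 were higher in D, where 18.6% of tested genes were. These 3 had enough reads only through D, so that they could hardly be called lower. Nothing is read from their number or from the adjusted p-values given for them below.

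The laccase-3-like gene LOC102597748 was read 2, 1 and 6 times in the C libraries and 146 and 193 times in the D libraries. This was a log2 difference of 5.69 (SE 0.39, adjusted p = 9.99e-07, edgeR quasi-likelihood), and 6.63 without C3, which held 6 of the 9 reads of C. The laccase-12-like gene LOC102606225 was read 4, 8 and 8 times in the C libraries and 91 and 77 times in the D libraries, a log2 difference of 3.54 (SE 0.33, adjusted p = 9.57e-06, edgeR quasi-likelihood). It was the laccase with the smallest fold among the tested ones, 11.9 (95% counting interval 7.44 to 19.9). The second laccase-12-like gene, LOC102605547, was read 0, 0 and 1 times in the C libraries and 18 and 25 times in the D libraries (adjusted p = 3.61e-04, edgeR quasi-likelihood), and its single read in C leaves the fold between 10.3 and 2450.

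The other 3 laccases were too thinly read for a test. Laccase-4-like, LOC102584179, was unread in bulk C and read 12 and 8 times in D1 and D2, which places D at least 9.41-fold higher. Laccase-5-like, LOC102601720, was unread in bulk C and read 5 and 5 times in D1 and D2, which places D at least 4.71-fold higher. Laccase-3, LOC102590317, was read 1, 0 and 0 times in the C libraries and 8 and 9 times in the D libraries. Laccase-17-like (LOC102581150), which the study names outside the term, went the other way at very low counts, with 3, 1 and 2 reads in the C libraries and 0 in D1 and D2. Laccase-3 lies next to LOC102597748, with 1931 bases between them, and the laccase-12-like genes are parted by 1 gene and 16764 bases. How reads that match more than 1 gene were counted is not given in the sources used here, so counts of neighbours with like names are uncertain.

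**Figure D3:**
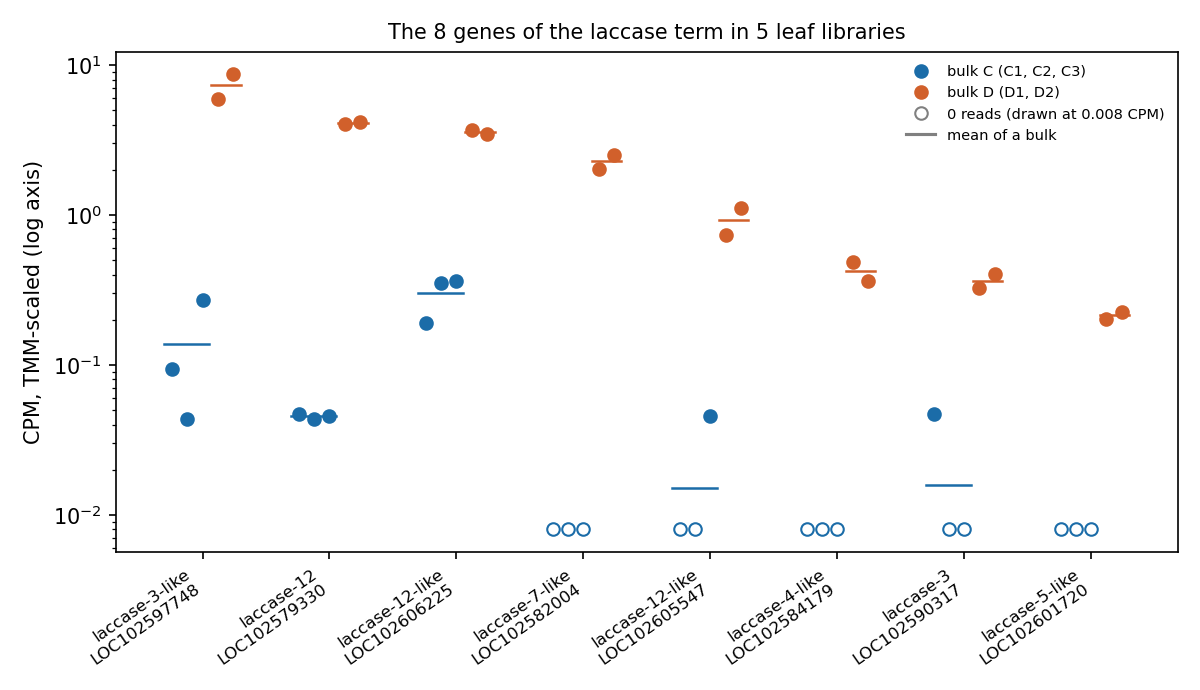
The level in CPM (log axis) of the 8 genes with the laccase term in each library, ordered by their mean in D, with open circles for 0 reads and bars for the mean of a bulk. In every gene the 2 points of bulk D lie above the 3 points of bulk C, from laccase-3-like with 146 and 193 reads in D to laccase-5-like with 5 and 5.

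Position in the genome was not used to pick the genes, so the genes beside them were tested. Up to 3 annotated genes on each side of a gene were taken, 48 in all, of which 35 were tested. Among these 13 (37.1%) passed, against 34.4% of all tested genes. Of the 35, 10 (28.6%) were higher in D, against 18.6% of all tested genes, and 3 (8.57%) were lower, against 15.8%. Their median log2 difference was -0.02, and whether these shares differ from those of all genes was not tested. Among the nearest gene on each side 6 of 12 tested genes passed. Differences of at least 1 on the log2 scale in the direction of D were found in 4 neighbours (11.4%, against 6.62% of all tested genes), and 2 of the 4 lie beside the extensin-1-like gene. Both had enough reads for a test only through D, so that they could hardly be called lower, and both count among the 10. Nothing is read from the adjusted p-values given for them below.

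These 2 are themselves extensins. The nearer, LOC102582357 (extensin-1-like, positions 286372 to 288552), begins 5925 bases past the end of LOC102606273. It was unread in bulk C and read 11 and 18 times in D1 and D2, which places D at least 13.6-fold higher (adjusted p = 0.0016, edgeR quasi-likelihood). Without D2 this gene had too few reads for a test. The further, LOC102583036 (extensin-3-like), begins 18074 bases past that end and was read 1, 2 and 2 times in the C libraries and 31 and 32 times in the D libraries, a log2 difference of 4.06 (SE 0.51, adjusted p = 1.10e-04, edgeR quasi-likelihood). All 3 extensins of this stretch thus had few or no reads in C, and whether reads were shared among them was not tested. On the other side of the extensin-1-like gene, and 139518 bases away, LOC102603918 (U-box domain-containing protein 28-like) was lower in D, with a log2 difference of -0.83 (SE 0.09, adjusted p = 3.65e-05, edgeR quasi-likelihood).

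The other large differences lay beside the At2g13820-like lipid-transfer gene and CASP-like protein 1. LOC102594678, 1398 bases from the lipid-transfer gene, was read 6, 12 and 14 times in the C libraries and 50 and 64 times in the D libraries, a log2 difference of 2.33 (SE 0.37, adjusted p = 5.26e-04, edgeR quasi-likelihood). LOC102601676, 89622 bases from CASP-like protein 1, was read 33, 41 and 49 times in the C libraries and 142 and 170 times in the D libraries, a log2 difference of 1.85 (SE 0.22, adjusted p = 6.18e-05, edgeR quasi-likelihood). Neither is named in the tables used here.

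The remaining called neighbours differed little. Beside the polygalacturonase, LOC102580227 was higher in D by 0.62 and LOC102580899, 91 bases away, by 0.30 on the log2 scale. LOC102580526 beside laccase-12 was higher by 0.67, and beside the laccase-7-like gene LOC102581337 was higher by 0.66 and LOC102581673 had a log2 difference of -0.44. LOC102602338, 686 bases from CASP-like protein 1, had -0.35. LOC102589156 beside the 4.1-like gene (0.31) and LOC102593694 beside the At2g13820-like gene (0.33) were, with LOC102580899, no longer called under 6, 6 and 7 of 13 alternatives. LOC102581337 lost its call without D2 (adjusted p = 0.056, edgeR quasi-likelihood), and LOC102581673 and LOC102602338 lost theirs with the replicate block (adjusted p = 0.0632 and 0.118). No neighbour of the trichome birefringence-like gene passed.

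**Figure D4:**
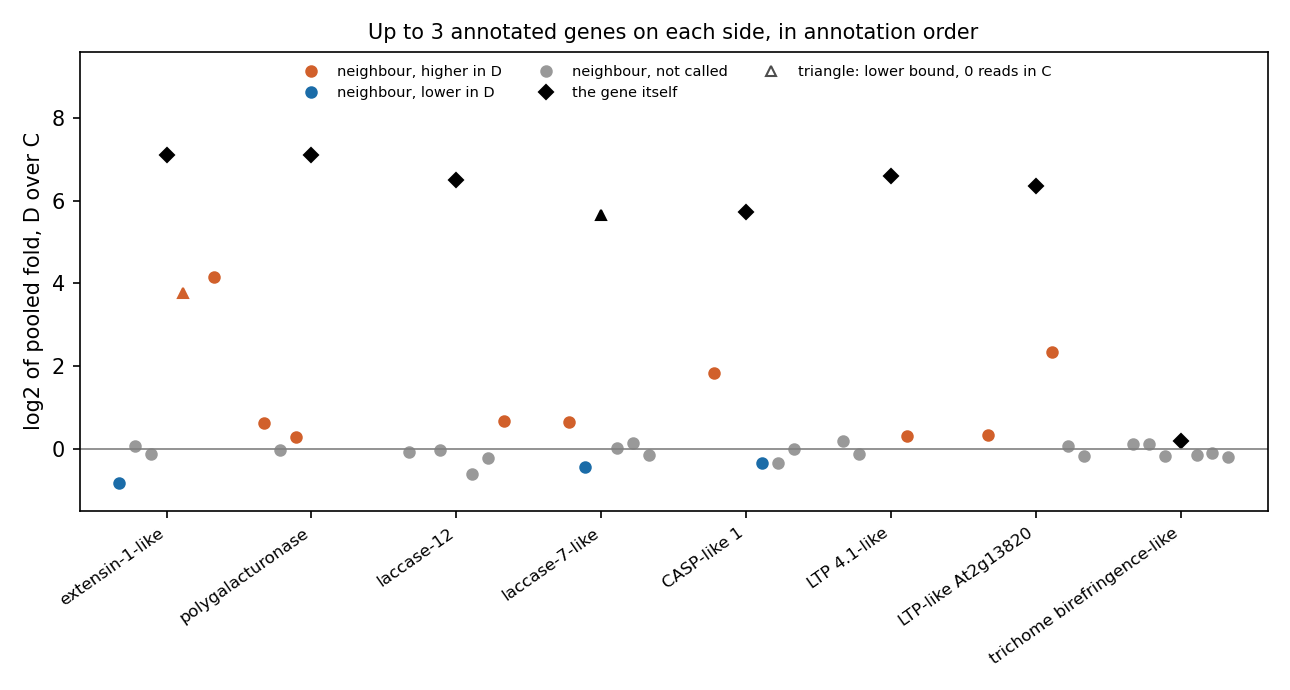
The log2 of the pooled fold, D over C, for the 8 genes (black) and for the tested genes among their 3 annotated neighbours on each side (coloured by call, in annotation order), with triangles for lower bounds where C had 0 reads. Most neighbours lie near 0 while 7 of the 8 genes lie above 5, and 4 neighbours lie above 1, at 3.77 (bound) and 4.15 beside the extensin-1-like gene, 2.33 beside the At2g13820-like gene and 1.84 beside CASP-like protein 1.

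The families of these genes were followed by product name in the part of the study's ranked list used here, which holds only the genes most changed in either direction. All genes in it were chosen by this contrast, so their counts and adjusted p-values are a description and are not compared with the 34.4% background. A gene with few or no reads in a bulk could be tested only through the other bulk, so that its direction was all but fixed. Further polygalacturonases numbered 11, of which 5 were tested, 4 higher and 1 lower in D. The polygalacturonase-like gene LOC102585640 was unread in bulk C and read 21 and 49 times in D1 and D2, which places D at least 32.9-fold higher. The At1g48100-like polygalacturonase LOC102586312 went the other way, read 54, 75 and 60 times in the C libraries and 31 and 23 times in the D libraries, a log2 difference of -1.31 (SE 0.27, adjusted p = 0.00316, edgeR quasi-likelihood). The family thus moved in both directions, and 6 of the 11 genes had at most 3 reads in all over bulk C.

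Of 10 further extensins, the neighbours LOC102582357 and LOC102583036 included, 6 were tested, with 5 higher and 1 lower in D. Extensin-1, LOC102583692, was read 21, 12 and 12 times in the C libraries and 620 and 563 times in the D libraries, a log2 difference of 5.20 (SE 0.19, adjusted p = 5.18e-09, edgeR quasi-likelihood). The extensin-2-like gene LOC102600042 was unread in bulk C and read 20 and 34 times in D1 and D2, which places D at least 25.4-fold higher. The extensin LOC102580844 was the exception, read 249, 302 and 280 times in the C libraries and 154 and 143 times in the D libraries, a log2 difference of -0.98 (SE 0.13, adjusted p = 1.54e-04, edgeR quasi-likelihood). LOC102600042 stands in a run of extensin-2-like genes, LOC102598284 and LOC107061048, of which the last pair are only 134 bases apart, and the whole run had 0 reads in C.

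Of 12 further lipid-transfer genes 7 were tested and all 7 were higher in D. Lipid-transfer protein 1, LOC102597952, was read 31, 36 and 21 times in the C libraries and 960 and 1332 times in the D libraries, a log2 difference of 5.21 (SE 0.22, adjusted p = 1.64e-08, edgeR quasi-likelihood). The lipid-transfer protein 1-like gene LOC102599380 was unread in bulk C and read 53 and 69 times in D1 and D2, which places D at least 57.4-fold higher. The gene LOC102600748, also named after At2g13820, was read 15, 7 and 3 times in the C libraries and 153 and 178 times in the D libraries (log2 difference 4.21, SE 0.36, adjusted p = 5.67e-06, edgeR quasi-likelihood). Named but untested genes of this family also included 2 with reads in C and none in D, LOC102588710 (0, 3 and 5 reads in C) and LOC107062888 (4, 1 and 1).

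Among 9 further CASP-like genes 5 were tested, 4 higher and 1 lower in D. CASP-like protein 1B2, LOC102605769, was unread in bulk C and read 38 and 33 times in D1 and D2, which places D at least 33.4-fold higher. CASP-like protein 4D1, LOC102593993, was read in both bulks, at 56, 85 and 57 times in the C libraries and 528 and 502 times in the D libraries, a log2 difference of 2.88 (SE 0.16, adjusted p = 1.34e-07, edgeR quasi-likelihood). CASP-like protein 4B1, LOC102590284, was lower in D, read 85, 86 and 88 times in the C libraries and 64 and 45 times in the D libraries (log2 difference -0.76, SE 0.21, adjusted p = 0.0159, edgeR quasi-likelihood).

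In the trichome birefringence-like family 1 of 4 further named genes was tested, and it was lower in D. This gene, trichome birefringence-like 34 (LOC102587978), was read 37, 48 and 44 times in the C libraries and 25 and 14 times in the D libraries, a log2 difference of -1.23 (SE 0.32, adjusted p = 0.0121, edgeR quasi-likelihood). The untested genes had few reads. Trichome birefringence-like 33 (LOC102584430) was unread in bulk C and read 14 and 7 times in D1 and D2, which places D at least 9.88-fold higher, and trichome birefringence-like 42 (LOC102594004) was unread in C and read 3 and 2 times in D. LOC102604000, also named trichome birefringence-like 34, had 1 read over bulk C and 3 over bulk D. The named genes thus lay in both directions. The gene LOC102593679, whose protein shares a protein group in the study with that of LOC102599991, was read 206, 225 and 154 times in the C libraries and 257 and 264 times in the D libraries. Its log2 difference of 0.33 (SE 0.16) did not pass (adjusted p = 0.132, edgeR quasi-likelihood), and C3 was the lowest library.

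Other wall and surface lipid genes were taken by their curated RefSeq symbols, 10 in all, after the table had been seen. Of these 7 were tested: 3 were higher in D (18.6% of all tested genes were), 1 was lower (15.8%) and 3 did not pass. Of the 3 higher genes, XEGIP1 had enough reads for a test only through D, so that it could hardly be called lower. The median log2 difference of the 7 was 0.28, the value of STUGE51, which did not pass, against 0.01 over all tested genes. With 7 genes picked after the table was seen nothing is read from it. CER6, an enzyme that elongates fatty acids for wax, was read 1355, 1433 and 1448 times in the C libraries and 2790 and 2942 times in the D libraries, a log2 difference of 0.94 (SE 0.09, adjusted p = 9.57e-06, edgeR quasi-likelihood). EXLA1, an expansin-like gene, was read 227, 288 and 334 times in the C libraries and 943 and 849 times in the D libraries (log2 difference 1.58, SE 0.13, adjusted p = 3.39e-06, edgeR quasi-likelihood). These genes were well read in C, unlike the 7 genes with a step.

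XEGIP1, an inhibitor of an enzyme that cuts xyloglucan, was nearer to the step pattern, read 0, 1 and 0 times in the C libraries and 12 and 15 times in the D libraries (log2 difference 4.82, SE 0.90, adjusted p = 0.0016, edgeR quasi-likelihood). Its only read in C lies in C2, without which the fitted value was 6.72, and without D2 it had too few reads for a test. XEGIP4, 1 gene and 9476 bases further on, was read 0, 2 and 0 times in the C libraries and 4 and 8 times in the D libraries and was not tested. PME1, a pectin methylesterase, was the gene lower in D, read 35875, 32954 and 32452 times in the C libraries and 21791 and 22250 times in the D libraries (log2 difference -0.70, SE 0.10, adjusted p = 3.59e-04, edgeR quasi-likelihood). Pectin genes therefore stood on both sides, with the polygalacturonase higher and PME1 lower in D.

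The cellulose synthase gene STCESA3 had a log2 difference of 0.03 (SE 0.08, adjusted p = 0.807, edgeR quasi-likelihood). The genes STUGE45 (-0.29, SE 0.15, adjusted p = 0.155) and STUGE51 (0.28, SE 0.13, adjusted p = 0.114, edgeR quasi-likelihood), which code for epimerases that make UDP-galactose, also did not pass. EXPB1 did not exceed 5 reads in a library, and EXPB2 was unread in all 5.

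**Figure D5:**
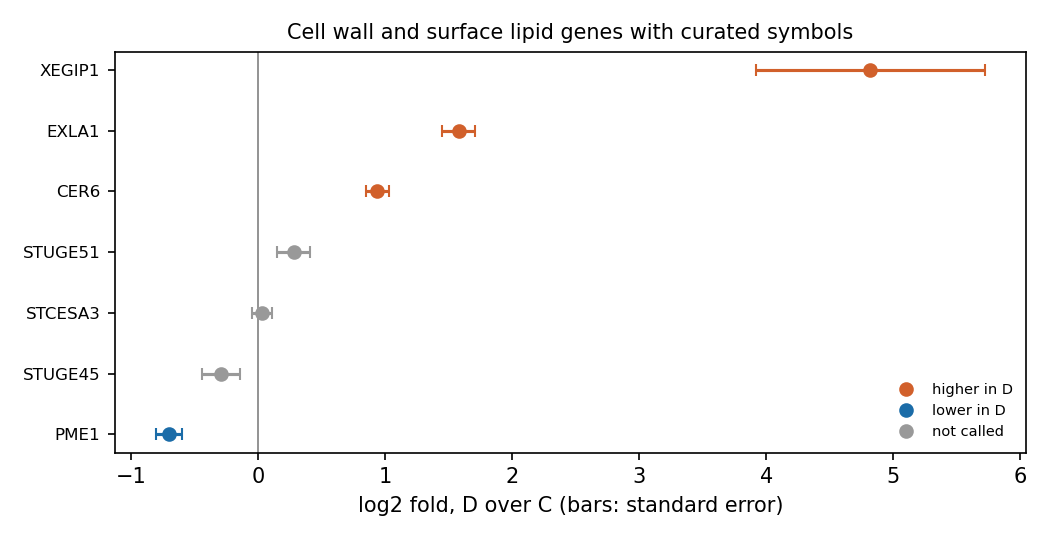
The fitted log2 difference, D over C, of the 7 tested genes with curated symbols, with bars for the standard error. XEGIP1 (4.82), EXLA1 (1.58) and CER6 (0.94) lie to the right as higher in D, PME1 (-0.70) to the left as lower in D, and STUGE51, STCESA3 and STUGE45 in grey did not pass.

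Other wall and surface lipid families named in the ranked list were chosen by this contrast like the families above, and 4 of these 5 families had called genes in both directions. Of 17 pectinesterases 7 were tested, 2 higher and 4 lower in D, and of 7 expansins 6 were tested, 2 higher and 3 lower. Of 20 GDSL esterase/lipases 13 were tested, 5 higher and 6 lower in D. Among 5 ECERIFERUM genes, named after Arabidopsis wax genes, 3 were tested, of which 2 were higher and 1 did not pass. The ECERIFERUM 1-like gene LOC102579884 did not pass (log2 difference -0.86, adjusted p = 0.213, edgeR quasi-likelihood), and the untested LOC102599945 had 6 reads over bulk C and 1 over bulk D. ECERIFERUM 3 (LOC102583592), named after an Arabidopsis gene of wax alkane formation, was read 117, 207 and 215 times in the C libraries and 1133 and 1027 times in the D libraries, a log2 difference of 2.50 (SE 0.17, adjusted p = 7.87e-07, edgeR quasi-likelihood). The 2 3-ketoacyl-CoA synthase 6-like genes, whose kind of enzyme elongates fatty acids, went apart. LOC102579394 was read 0, 2 and 1 times in the C libraries and 16 and 18 times in the D libraries (adjusted p = 0.00163, edgeR quasi-likelihood), and LOC102579720 was read 38, 26 and 37 times in the C libraries and 9 and 10 times in the D libraries (log2 difference -1.90, adjusted p = 0.00364, edgeR quasi-likelihood).

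For each of the 8 genes the 2 other tested genes with the most similar pattern were found, by the Euclidean distance between centred log2(CPM + 0.5) values over the 5 libraries. The measure uses the same libraries as the choice of genes and is a description. The added 0.5 CPM exceeds the mean in C of every gene with a step but the extensin-1-like gene, which shrinks their folds. A near gene can therefore differ in fold: the fitted log2 difference was 6.33 for laccase-12 and 3.42 for its nearest gene. Nearest to laccase-12 was LOC102590445 (ABC transporter B family member 11-like, distance 0.0861), read 33, 33 and 32 times in the C libraries and 397 and 351 times in the D libraries, followed by LOC107060483 (FIP1-like, 0.184). Nearest to the laccase-7-like gene were LOC102587259 (not named, 0.11) and LOC102598258, a GDSL esterase/lipase (0.124), read 0, 1 and 1 times in the C libraries and 52 and 56 times in the D libraries.

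The polygalacturonase was nearest to LOC107060484 (RNA-binding protein 12-like, 0.346) and to LOC102583921, a suberization-associated anionic peroxidase 2-like gene (0.373), which was read 12, 8 and 7 times in the C libraries and 523 and 581 times in the D libraries. The extensin-1-like gene was nearest to LOC107061407 (helicase glh-2-like, 0.399) and LOC102589374 (chloroplastic carbonic anhydrase-like, 0.423). CASP-like protein 1 was nearest to LOC102578543 (salicylate carboxymethyltransferase-like, 0.189), with 1 read in each library of C and 95 and 131 in D, and to the uncharacterized LOC102589387 (0.222).

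The 4.1-like lipid-transfer gene was nearest to LOC107063353 (multicystatin-like, 0.255), read 140, 169 and 153 times in the C libraries and 2482 and 2552 times in the D libraries, and to LOC102590464 (not named, 0.363). The At2g13820-like gene was nearest to LOC102591207 (cellulose synthase-like protein E6, 0.207) and LOC102605262 (a type-2 proteinase inhibitor, 0.23). The trichome birefringence-like gene, whose levels differed little between libraries, had the smallest distances of all, to LOC102589654 (0.021) and LOC102582796 (0.0248). Neither of these is named and neither passed the threshold (adjusted p = 0.109 and 0.23, edgeR quasi-likelihood).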

How the data were processed

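Raw counts of reads per gene were deposited by the authors, who aligned 100-bp paired-end reads to SolTub_3.0 with TopHat2 (2.0.9) and Bowtie2 (2.1.0) and counted them with HTSeq, without normalization. The header holds 7 names over 7 fields, the first being the genes, so the names were read 1 field to the left of their counts. This leaves 1 count column unused and D3 not analysed. The members and lists were chosen with earlier results of these data known.

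Bulks were compared in R 4.3.3 with edgeR 4.0.16 (TMM, filterByExpr: 10 counts at the median depth in at least 2 libraries and 15 in all), with DESeq2 1.42.0 and limma 3.58.1 (voom) as alternatives. The tests were tried on simulated counts. In these only well-read genes were changed, and by less than the steps described here, so they do not bear on genes nearly unread in C. Columns of the authors' own fold changes and p-values were not used, only product names from the same list (2764 read). Named were the 8 genes, their called neighbours and 2 most similar genes, all laccase-term genes and, per family, the largest called difference in each direction and the highest levels. CER6 and the other curated symbols, the surface lipid genes, LOC102581150, LOC102588710, LOC107062888, LOC102584430, LOC102594004 and LOC102604000 were named after their values were seen. RefSeq symbols matched 32736 of 32768 genes. Families by protein similarity and promoter motifs, planned, were not run for lack of sequences.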

Additional observations from a re-analysis of the deposited data

How the results depend on the processing

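The median log2 difference of the 8 genes was 6.42 with median-of-ratios (RLE) factors, 6.53 on total counts and 6.29 to 6.48 with a library left out, and the median of fitted values was 6.42 in edgeR, 6.54 in DESeq2, 6.32 in limma voom and 6.52 with the replicate block. Calls over all genes (6760, with 3649 higher and 3111 lower in D) ranged from 4466 to 6849, 2394 to 3811 and 2029 to 3038 when a library was left out, with the fewest without D2 for all calls and for those higher, and without C3 for those lower. With 1 library of D left, its spread was taken from bulk C. Total counts alone gave 1966 lower genes and raised the share of calls higher in D from 54% to 70.6%, while the median of all genes moved by 0.1. Called neighbours (13) ranged from 9 to 15, the laccases stayed at 5 and the curated genes (4) at 3 to 4. The replicate numbers pair no libraries by the labels, and the deviations of C1 and C2 and of D1 and D2 correlated at -0.53 over 15429 genes. With the replicate block there were 3448 calls (2052 higher, 1396 lower) and 8 called neighbours. An adjusted p under 0.01 left 4068 calls (2320 and 1748). A log2 difference of at least 1 left 1837 (1300 and 537), 4 neighbours and 2 curated genes. With the nearest gene on each side only, 6 neighbours were called. With a filter of 1 count in any library all 8 laccases were called, DESeq2 called 7, and with 10 counts in every library 0 were called, since that filter removes every laccase and all of the 8 genes but 2. No direction was reversed. Families by protein similarity and promoter motifs were not run. With 0 to 37 reads in all over bulk C, the folds of 7 genes are known only within their counting intervals, and they cannot be ranked.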
